A study of Homo sapiens with 6 samples.

Results

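In the human melanoma line A-375, an established cell line, 46 genes with a low but steady signal in the control libraries were nearly without reads in the libraries labelled SEPHS2 knockout. They were chosen by their read counts in the comparison described here: 60 or more reads summed over the 3 control libraries and 6 or fewer summed over the 3 libraries labelled knockout. Of 21631 rows in the table, 59 met both limits, and 13 of these were excluded by their symbols, which leaves the 46 described here. The 13 were PCK1, NDN, RBM11, LINC01419, ABCA8, PLXNA4, CDH8, KCNJ8, UNC5D, COL22A1, TENM2, POU3F3 and FAT3. Because the counts made the choice, the low values of the 46 genes in one group are a description and carry no test.

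The study measured bulk RNA from A-375 cells with a control guide (sgCTRL, 3 libraries) or a guide against SEPHS2 (sgSEPHS2, 3 libraries). SEPHS2 encodes the enzyme that makes selenophosphate for selenocysteine. All 6 libraries come from the same line, and the labels name no treatment, clone or separate culture, so differences between libraries of a group may be technical. Depth was 34606145 to 43405579 counted reads per library. SEPHS2 itself had counts of 6671, 6277 and 6269 in the control group and of 5802, 7643 and 6978 in the other, so its mRNA count does not check the labels, and the second group is called the libraries labelled knockout throughout. With no lines named, an effect of the guide and a difference between the founding cells of the groups cannot be told apart. In bulk RNA, fewer cells that make a transcript cannot be told apart from less transcript per cell. Of the melanocyte markers, SOX10 stood at 619 ± 15.6 CPM (SD, n = 3; CPM, a gene's reads per unit of library size) in the control group and 569 ± 13 in the other. EDNRB stood at 78.3 ± 1.91 CPM in the control group and 29.4 ± 1.37 in the other, and MITF at 23.5 ± 1.3 and 18.5 ± 0.668. SOX10, EDNRB and MITF were the 3 of 7 tested melanocyte markers called lower (edgeR, adjusted p under 0.05), and none was called higher. The pigment genes MLANA and PMEL stood near 1 CPM in both groups. TYR was listed at 0 in the 3 control libraries and had 10 reads over the others.

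As background, melanoma arises from melanocytes, which descend from the neural crest, the embryonic tissue that also gives rise to peripheral neurons and glia. Genes of other tissues can stay faintly transcribed in cultured cells, and low counts of a tissue gene do not show that its protein is made. Several of the 46 belong to the KRAB zinc finger family, DNA-binding repressors that arose by tandem duplication and lie in clusters on chromosomes 7 and 19 among others. Others belong to the VCX family of the X chromosome, whose copies are transcribed in male germ cells.

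Promoter sequences are shown first for 7 of the 46 genes, since the results return to gene copies on the same chromosome and to promoters that differ in CG content. Each run is the 250 bases just before the annotated start, 5′ to 3′ on the gene's own strand, from RefSeq on GRCh38.p14, with every CG dinucleotide in capitals. ZNF716 (chr7:57449927-57450176, plus strand), ZNF722 (chr7:63998599-63998848, plus) and ZNF727 (chr7:64045184-64045433, plus) are zinc finger genes of the same chromosome. VCX3A (chrX:6535119-6535368, minus) and VCX3B (chrX:8464580-8464829, plus) are the VCX copies among the 46. BPIFA2 (chr20:33161520-33161769, plus) and ADAMTS2 (chr5:179345462-179345711, minus) show a window poor in CG and one rich in it.
ZNF716: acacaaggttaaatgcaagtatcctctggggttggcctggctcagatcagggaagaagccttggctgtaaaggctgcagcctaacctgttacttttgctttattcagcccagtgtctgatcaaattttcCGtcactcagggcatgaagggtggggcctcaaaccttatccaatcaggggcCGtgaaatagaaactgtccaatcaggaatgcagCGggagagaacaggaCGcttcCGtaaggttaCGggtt
ZNF722: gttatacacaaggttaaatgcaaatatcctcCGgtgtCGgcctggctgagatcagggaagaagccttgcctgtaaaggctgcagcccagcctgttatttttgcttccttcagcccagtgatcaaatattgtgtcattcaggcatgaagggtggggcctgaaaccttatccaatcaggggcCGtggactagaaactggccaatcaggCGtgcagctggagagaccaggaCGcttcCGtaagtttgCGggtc
ZNF727: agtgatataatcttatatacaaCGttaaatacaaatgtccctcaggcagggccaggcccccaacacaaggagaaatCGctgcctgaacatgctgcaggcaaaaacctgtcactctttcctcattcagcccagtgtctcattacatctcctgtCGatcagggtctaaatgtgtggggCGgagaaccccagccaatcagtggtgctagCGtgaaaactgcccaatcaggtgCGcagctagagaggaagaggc
VCX3A: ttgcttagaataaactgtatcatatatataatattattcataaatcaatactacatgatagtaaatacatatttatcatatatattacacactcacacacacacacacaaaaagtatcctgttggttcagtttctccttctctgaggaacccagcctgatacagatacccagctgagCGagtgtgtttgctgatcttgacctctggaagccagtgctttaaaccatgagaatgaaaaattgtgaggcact
VCX3B: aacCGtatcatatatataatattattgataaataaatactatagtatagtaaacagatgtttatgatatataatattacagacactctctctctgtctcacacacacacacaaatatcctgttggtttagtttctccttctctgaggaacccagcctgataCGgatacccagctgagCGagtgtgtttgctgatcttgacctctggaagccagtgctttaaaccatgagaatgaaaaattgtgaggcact
BPIFA2: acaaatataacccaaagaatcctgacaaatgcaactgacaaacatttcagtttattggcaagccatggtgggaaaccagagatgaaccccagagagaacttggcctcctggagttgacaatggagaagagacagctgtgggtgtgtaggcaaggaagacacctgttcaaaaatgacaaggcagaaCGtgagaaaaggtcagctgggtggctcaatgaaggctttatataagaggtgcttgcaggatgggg
ADAMTS2: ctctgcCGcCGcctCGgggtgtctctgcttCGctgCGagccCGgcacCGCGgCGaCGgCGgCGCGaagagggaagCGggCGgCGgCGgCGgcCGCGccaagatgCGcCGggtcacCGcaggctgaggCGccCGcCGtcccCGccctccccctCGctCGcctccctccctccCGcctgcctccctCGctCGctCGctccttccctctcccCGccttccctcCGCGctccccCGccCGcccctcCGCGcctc

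Aligned end to end, the windows of ZNF716 and ZNF722 were 85.9% identical, while that of ZNF727 was 60.9% identical to the first and 61.6% to the second. The windows of VCX3A and VCX3B were 84.4% identical. For scale, the unrelated windows of BPIFA2 and ADAMTS2 reached 40% in the same alignment. The printed bases hold 6 CG dinucleotides for ZNF716, 7 for ZNF722, 6 for ZNF727, 1 for VCX3A, 3 for VCX3B, 1 for BPIFA2 and 40 for ADAMTS2.

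Together the 46 genes held 7219 reads in the control libraries and 98 in the libraries labelled knockout. Single control libraries held 14 to 172 reads of a gene, and single libraries of the other group held 0 to 4. The choice of genes makes such a gap nearly certain. In the libraries labelled knockout, 17 of the genes had no read at all, 16 had 1 to 3 reads and 13 had 4 to 6. Of those 138 single values, 95 were 0, 30 were 2, 7 were 4 and 6 were odd. An excess of even values is a property of all low counts in this table: even numbers made up 64.1 to 70.1% of the values from 1 to 6 in each library, against 49.3 to 51.1% of the values from 60 to 200. Whether both mates of a read pair were counted is not given in the sources used here, so 2 reads may be 1 fragment, and the counting intervals below, which treat reads as independent and cover counting error only, may be too narrow.

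**Figure D1:**
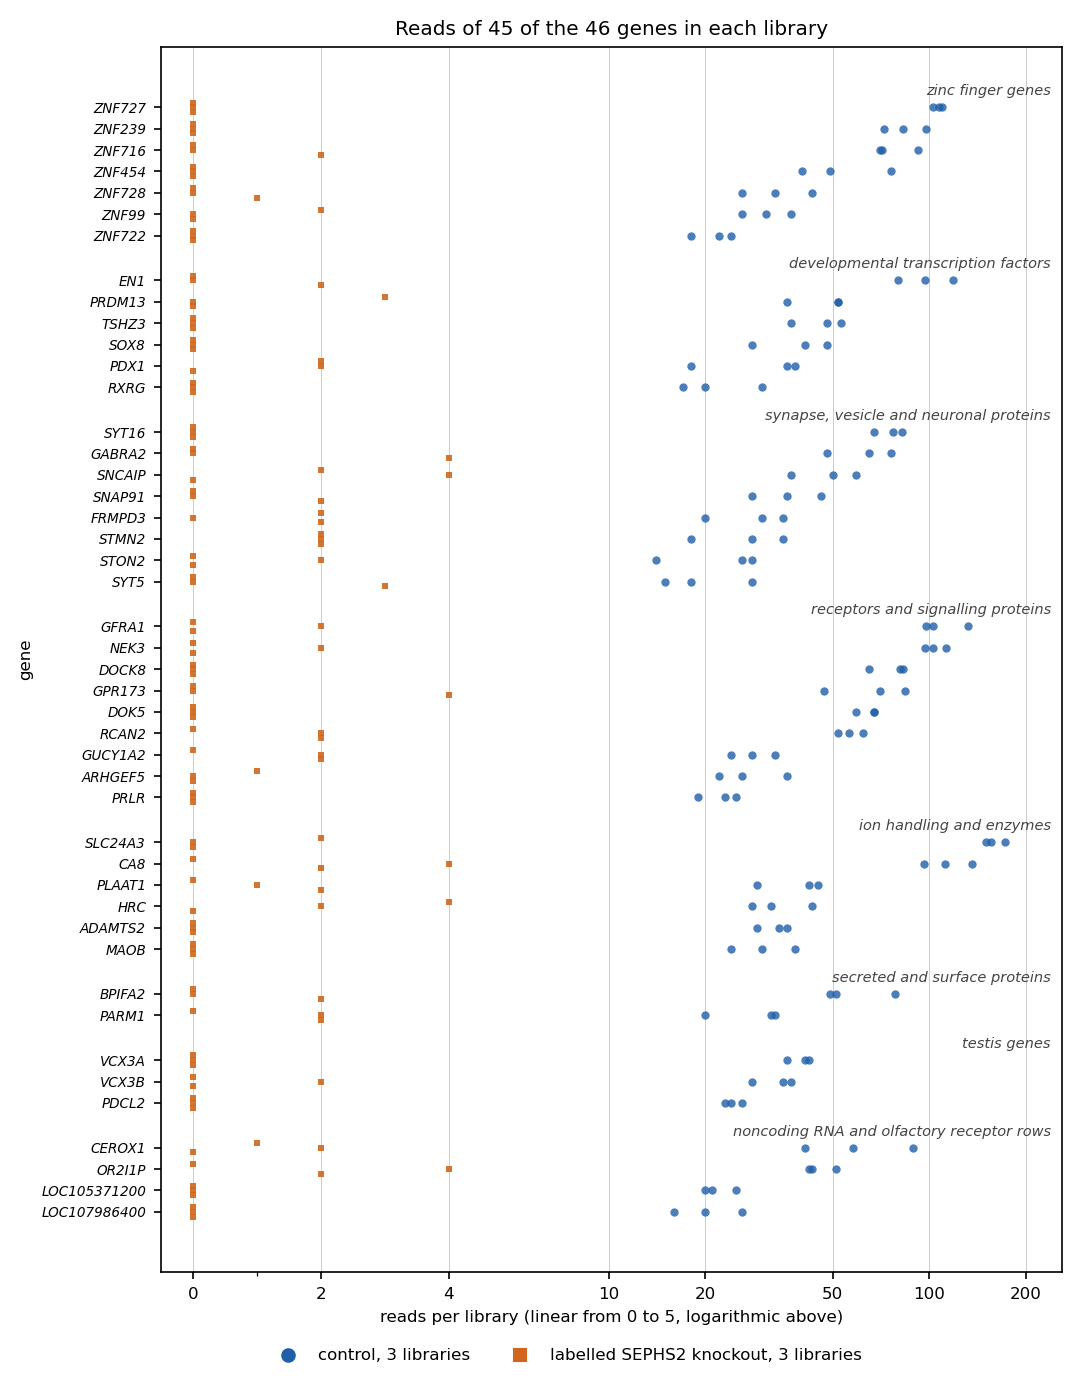
Reads of 45 of the 46 genes in the 3 control libraries (circles) and the 3 libraries labelled knockout (squares), grouped by role. The horizontal axis is linear from 0 to 5 and logarithmic above. Control libraries lie between 14 and 172 reads and the others between 0 and 4.

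All 46 are genes of low level. Their control sums ran from 61 to 479 reads with a median of 118, and their mean levels from 0.493 to 3.89 CPM with a median of 0.958, so that 22 reached 1 CPM. Among all genes tested they stood between percentiles 8.39 and 30.1 of control level. The spread between control libraries was that of low counts, with a median coefficient of variation of 19% (3.76 to 38.9%) against 16.4% for the 3664 other rows with 60 to 479 control reads. Per length of exon, which was known for 44 of them, the highest control level was that of ZNF727, at 1.55 CPM per kilobase, and the lowest that of PRLR, at 0.0414. All 46 passed the filter on low counts, and all 46 were called lower by edgeR at an adjusted p under 0.05. The same call was made for 3950 of 16910 genes tested (23.4%), and nothing is read from it here, because the same counts chose the genes. The fold between groups, taken as a bound where no read was seen, had a median of 42.4 and ran from 12.9 to 229. For this bound an empty group counted as 3 reads in all. The bound carries no counting interval, and it would be lower if 2 reads are 1 fragment.

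Zinc finger genes made up 7 of the 46, with 1231 control reads against 5. ZNF727 (chromosome 7, 64045434 to 64085339) had 103, 110 and 107 control reads and 0 reads in every other library, which makes it at least 102-fold lower. ZNF239 (chromosome 10) had 72, 83 and 98 control reads and none in the other group, at least 80.5-fold lower. ZNF716 had 92, 70 and 71 control reads against 0, 0 and 2, a ratio of 111 with a 95% counting interval of 30.4 to 924. In all of these the 3 control libraries were close to each other and the other 3 at or next to 0. ZNF454 had 49, 76 and 40 control reads and 0 in every library labelled knockout. ZNF728 had 33, 26 and 43 against 0, 0 and 1. ZNF99 had 31, 37 and 26 against 2, 0 and 0. ZNF722, the lowest of the family here, had a control sum of 64 reads and none in the other group. Zinc finger genes share long stretches of sequence, and how reads that map to several places were counted is not given in the sources used here, so counts of single copies are uncertain.

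Developmental transcription factors gave 6 genes. EN1, the engrailed homeobox factor of the midbrain-hindbrain boundary and the limb, had 80, 119 and 97 control reads against 0, 0 and 2, a ratio of 141 (95% counting interval 38.8 to 1170). PRDM13, which directs the choice of inhibitory neuron fates in spinal cord and retina, had 52, 36 and 52 against 3, 0 and 0. TSHZ3, a teashirt zinc finger factor of cortical neurons and of the ureter, had 53, 37 and 48 against 0 in each, at least 43.9-fold lower. For the 3 genes every control library held at least 36 reads, and the libraries labelled knockout together held 5. SOX8, which belongs with SOX9 and SOX10 to the SOXE factors of the neural crest, had 28, 48 and 41 control reads and none in the other group, at least 37.2-fold lower. PDX1, the factor of pancreas formation and insulin transcription, had 36, 38 and 18 against 2, 2 and 0. RXRG, a retinoid X receptor that pairs with other nuclear receptors, had a control sum of 67 reads and none in the other group.

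Proteins of synapses, vesicles and neurons gave 8 genes. SYT16, a synaptotagmin-type protein of membrane traffic, had 82, 67 and 77 control reads and 0 in every library labelled knockout, at least 71.9-fold lower. GABRA2, a subunit of the GABA-A receptor, the chloride channel opened by the inhibitory transmitter GABA, had 76, 48 and 65 against 0, 0 and 4, a ratio of 45.1 (95% counting interval 17.3 to 167). SNCAIP, which encodes the synuclein-binding protein synphilin-1, had 59, 50 and 37 against 2, 4 and 0. SYT16 was the 1 gene of the group without a single read in the libraries labelled knockout. SNAP91, a clathrin assembly protein of presynaptic terminals, had 36, 46 and 28 against 0, 0 and 2, and STON2, an adaptor that returns synaptotagmin to vesicles, had 14, 28 and 26 against 0, 2 and 0. FRMPD3, a FERM and PDZ domain protein, had 35, 20 and 30 against 2, 0 and 2. STMN2, a microtubule regulator of growing axons, had 18, 28 and 35 against 2 in each library. Its ratio of 12.9 (95% counting interval 5.67 to 36.1) was the lowest of the 46. SYT5, a calcium sensor of vesicle fusion, had sums of 61 and 3.

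Receptors and signalling proteins were the most numerous role, with 9 genes. GFRA1, the co-receptor through which GDNF activates RET, had 103, 132 and 98 control reads against 0, 2 and 0, a ratio of 159 (95% counting interval 43.7 to 1320). NEK3, a kinase of the NIMA family, had 103, 97 and 113 against 0, 2 and 0, a ratio of 149 (41 to 1240). DOCK8, a guanine nucleotide exchange factor known from lymphocytes, had 65, 83 and 81 and no read in the other group, at least 72.9-fold lower. Each control library thus held at least 65 reads of these 3 genes, and the libraries labelled knockout held 4 reads of them in all. GPR173, an orphan receptor of the brain, had 84, 47 and 70 against 0, 0 and 4. DOK5, a docking protein downstream of receptor tyrosine kinases such as RET, had 59, 67 and 67 against 0 in each, at least 61.4-fold lower. RCAN2, an inhibitor of the phosphatase calcineurin, had 52, 62 and 56 against 0, 2 and 2. The remaining receptors and signalling genes were lower in level. GUCY1A2, a subunit of the nitric oxide receptor guanylate cyclase, had 33, 24 and 28 against 0, 2 and 2, and ARHGEF5, another exchange factor, had 26, 36 and 22 against 1, 0 and 0. PRLR, the prolactin receptor of the mammary gland, had sums of 67 and 0.

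Ion handling proteins and enzymes gave 7 genes, among them the most abundant of the 46 by reads. SLC24A3 (chromosome 20, 19212642 to 19722926), a potassium-dependent sodium/calcium exchanger of brain and smooth muscle, had 156, 151 and 172 control reads against 2, 0 and 0. That is 3.89 ± 0.364 CPM (SD, n = 3) in the control group and a ratio of 229 (95% counting interval 62.9 to 1890). CA8, a carbonic anhydrase-like protein of Purkinje cells without enzymatic activity, had 136, 112 and 96 against 0, 4 and 2, a ratio of 54.7 (24.9 to 150). CA8 stands at the limit of the choice, with 6 reads in the libraries labelled knockout. PLAAT1, a phospholipase and acyltransferase, had 45, 42 and 29 against 0, 1 and 2. HRC, a calcium-binding protein of the muscle sarcoplasmic reticulum, had 43, 32 and 28 against 4, 2 and 0. ADAMTS2, the protease that removes the amino-terminal propeptide of fibrillar procollagens, had 34, 29 and 36 against 0 in each, and MAOB, which breaks down dopamine and other amines, had 24, 38 and 30 against 0 in each. The bounds for these last genes were 31.5-fold and 29.3-fold.

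Secreted and surface proteins gave BPIFA2, a salivary protein also called parotid secretory protein, with 51, 49 and 78 control reads against 0, 0 and 2, and PARM1, a mucin-like protein first described in prostate, with 20, 32 and 33 against 0, 2 and 2. Testis genes gave VCX3A with 41, 42 and 36 against 0 in each, VCX3B with 35, 28 and 37 against 0, 2 and 0, and PDCL2, a phosducin-like protein of developing sperm, with 26, 24 and 23 against 0 in each. PDCL2 had the smallest spread of the 46 between control libraries, with a coefficient of variation of 3.76%. The rows outside these roles were CEROX1, a long noncoding RNA, OR2I1P, an olfactory receptor row, and the uncharacterised loci LOC105371200 and LOC107986400. CEROX1 had 41, 89 and 58 against 1, 2 and 0, the widest spread of the 46 among control libraries (38.9%). OR2I1P had 42, 51 and 43 against 0, 4 and 2. The uncharacterised loci had control sums of 66 and 62 reads and none in the other group.

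By the tissue each gene is best known for, 21 of the 46 were put under the nervous system, 3 under testis, 2 under muscle, 1 each under 6 other tissues (connective tissue, the immune system, mammary gland, pancreas, prostate and salivary gland), and 14 under none. The assignment was made by hand after the genes were known and has no background count, so no share of a tissue is read from it. By gene type, 42 were protein-coding and 3 long noncoding RNAs in RefSeq, which matched 45 of the 46. Chromosomes 5, X and 19 held 5 of them each, chromosomes 6 and 7 held 4 each, and no other held more than 3.

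Markers of whole cell types did not vanish with these genes. Of the neuron list, 5 of 12 tested markers outside the 46 were lower and 1 was higher (edgeR, adjusted p under 0.05), and the list's summed level was 135 to 138 CPM in the control libraries and 104 to 105 in the others. SNAP25, a protein of vesicle fusion, fell from 25.8 ± 2.86 to 14.8 ± 0.737 CPM (SD, n = 3 per group), and SYT1, the main calcium sensor of synaptic vesicles, fell from 29.1 ± 2.31 to 19.3 ± 0.569. Both remained abundant beside the 46, whose highest level in the control group was 3.89 CPM. Of the melanocyte list, 3 of 7 tested markers were lower and none was higher, with sums of 708 to 732 against 611 to 634 CPM. Of the glia list, 3 of 11 were lower, with sums of 611 to 647 against 409 to 410 CPM. Of the fibroblast list, 5 of 9 were lower and 1 was higher, with sums of 77.8 to 81 against 50.8 to 57.1 CPM. No tested germ cell marker was higher and 1 of 2 was lower, with sums of 5.79 to 6.81 against 4.28 to 4.6 CPM. No immune cell marker of 6 was lower and 1 was higher, with sums of 476 to 507 against 508 to 541 CPM, most of it CD74. Of the epithelium list, none of 7 was lower and 4 were higher, and of the smooth muscle list none of 6 was lower and 3 were higher. Endothelium had 3 of 8 lower and 1 higher, and skeletal and heart muscle 1 of 3 lower and 1 higher. Placenta had 1 of 7 lower and 2 higher, and liver none of 2 lower and 1 higher. Over all genes tested, 23.4% were lower. The part of these shifts in the counts of the 46 genes was not tested.

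Rows close to the limits of the choice are given here without a test. Just inside the control limit stood SYT5 (61 reads), LOC107986400 (62), ZNF722 (64), LOC105371200 (66) and PRLR (67). Just outside it stood LINC00543 and MME with 59 control reads and none in the other group, SLC27A6 with 59 against 2, COL5A3 with 57 against 6 and DSG1 with 56 against 6. At the other limit, genes such as SNCAIP, STMN2, HRC, CA8 and OR2I1P had exactly 6 reads in the libraries labelled knockout, and no row with 60 or more control reads had 7. The next rows of that level, with 8 reads, were TFAP2B, NOVA2, VCAM1, BPIFB4, FUT4 and LINC01266. TFAP2B, a neural crest factor, was far more abundant than any of the 46, with 1732, 1719 and 1695 control reads against 2, 0 and 6.

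Among all 3710 rows with 60 to 479 control reads, 53 (1.43%) had 6 or fewer reads over the libraries labelled knockout. With the groups exchanged, 2 of 3456 rows (0.0579%) did so. These were LINC02387, with 2, 0 and 0 control reads against 17, 37 and 55, and VN1R60P, with 2, 0 and 0 against 22, 20 and 18. The same direction was seen at 0: 221 rows had no read in any library labelled knockout, with up to 1174 control reads, and 65 rows had none in any control library, with up to 38 reads in the other group. These counts come from the contrast that chose the 46 genes and describe the table only.

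**Figure D2:**
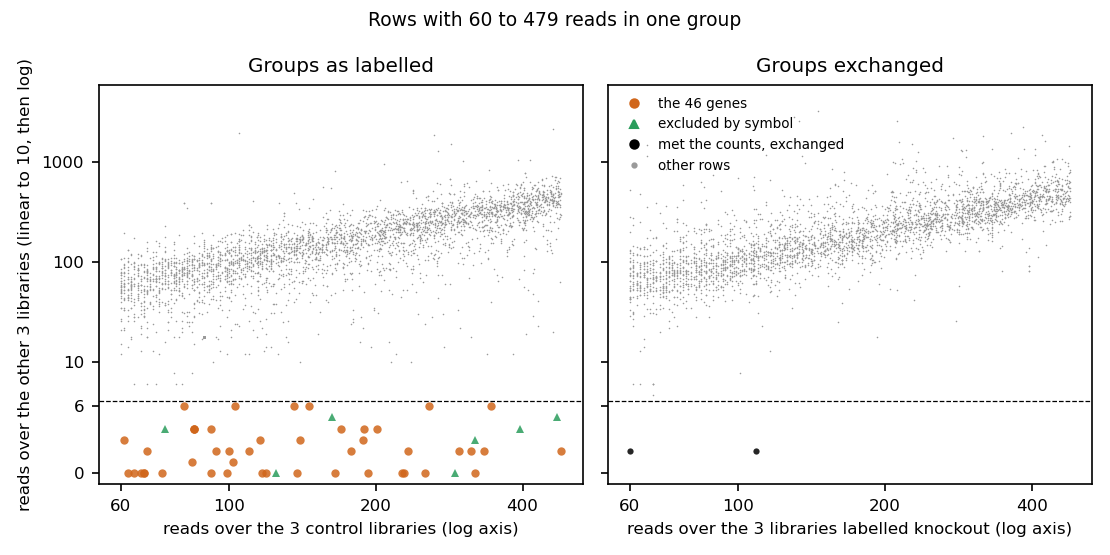
Left, reads over the libraries labelled knockout against reads over the control libraries for rows with 60 to 479 control reads. Right, the same with the groups exchanged. The dashed line lies just above 6 reads. Below it on the left are the 46 genes (circles) and 7 rows excluded by symbol (triangles), and on the right 2 rows (black).

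To read the genes in libraries that had not chosen them, the choice was repeated on 2 of the 3 replicates of each group with limits of 40 and 4 reads, and the third replicate was then read. With replicate 1 held out, 45 genes were chosen, 40 of them among the 46. In the held-out libraries they had a median of 36 reads (9 to 156) in the control library and 0 (0 to 6) in the other, where 30 had no read. With replicate 2 held out, 57 genes were chosen, including all 46, with medians of 38 (9 to 408) and 0 (0 to 14). With replicate 3 held out, 53 were chosen, 44 of them among the 46, with medians of 40 (6 to 1695) and 0 (0 to 10). The held-out control library held more reads than the held-out library labelled knockout for 45 of 45, 56 of 57 and 52 of 53 genes. The share over all genes was not counted beside this, and replicate numbers do not pair the libraries. In the held-out library labelled knockout, 39 of 45, 45 of 57 and 44 of 53 genes had 2 or fewer reads. With 1 library per group this is a description without a test. Libraries of a group may be technical repeats, so the held-out library may not be independent of the others.

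Positions on the chromosomes were not used in the choice. OR2I1P, which has no RefSeq position, was left out here. Around the other 45 genes, the nearest tested gene on each side gave 80 neighbours. Of these, 24 were lower, 19 were higher and 37 were not called (edgeR, adjusted p under 0.05). The 30% lower stands beside 23.4% of all genes tested, and the median log2 fold change of the neighbours was -0.04 against 0.01 for all genes tested. Within 250 kb of the 45 genes lay 179 other rows, of which 12 (6.7%) had no read in any library labelled knockout. This stands against 0.945% of all rows outside the 46 that have a position. These 12 rows lay near 12 of the genes, and several overlap them. Their control sums were low, from 7 reads (ANCV1RP among others) to 59 (LINC00543). The rows behind the 0.945% were not matched to them for level, and no test was made. Of the 45, 6 overlap another row, and since the strand setting of the counting is not known, reads of overlapping rows cannot be told apart. SLC24A3-AS1, the antisense row of SLC24A3, is one example, with 10, 8 and 14 control reads and none in the other group.

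Copies from the same family were among the rows between the 46 genes. On the X chromosome, VCX and VCX2 lie between VCX3A and VCX3B, more than 250 kb from either, and had 11, 7 and 15 and 3, 6 and 12 control reads, and none in the libraries labelled knockout. NLGN4X on one side, with 12531 reads against 13023, was called higher by edgeR with a log2 fold change of 0.13 (adjusted p = 0.0258). TBL1X on the other, with 18344 reads against 17903, changed by 0.04 and was not called (adjusted p = 0.577 in the same edgeR fit). The VCX copies are nearly identical in sequence, so reads may have been shared among them, and their 4 counts are not independent. On chromosome 19, ZNF723 between ZNF99 and ZNF728 had 11, 10 and 8 control reads and none in the other group. The flanking genes ZNF849P and ZNF730 changed by -0.82 and 0.35 on the log2 scale (edgeR adjusted p = 0.0218 and 0.0202). On chromosome 7, the starts of ZNF722 and ZNF727 lie 46.6 kb apart, while the next tested gene, ZNF736, had 3235 reads against 3261, a log2 fold change of 0.08 (adjusted p = 0.297 in the same edgeR fit). LOC101928401, the nearest tested gene on the other side of ZNF716, ZNF722 and ZNF727, was lower, with 204 reads against 81 (log2 fold change -1.26, edgeR adjusted p = 0.000754). Its start lies 916 kb from that of ZNF716, but 7460 kb from that of ZNF722 and 7510 kb from that of ZNF727. FAM9B, the tested gene nearest to VCX3B on the far side, was higher, with 168 reads against 326 (log2 fold change 1.02).

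In some other neighbourhoods nearby genes were lower too, in several of them on a single side only, and in others they were higher. On chromosome 16, CEROX1 and SOX8 are separated by 156 bases, and both were nearly without reads in the libraries labelled knockout. LMF1, a lipase maturation factor that overlaps CEROX1, had 169, 201 and 158 control reads against 12, 28 and 20, a log2 fold change of -3.07 (edgeR adjusted p = 1.83e-10). By start position, the nearest tested gene before CEROX1 and SOX8 was LOC102723713, with 24 reads against 19, and it was not called. On chromosome 5, ZNF454 and ADAMTS2 flank ZNF879, GRM6 and ZNF354C. ZNF354C had 723, 651 and 699 control reads against 189, 200 and 191, a log2 fold change of -1.77 (edgeR adjusted p = 2.5e-12), and ZNF879 changed by -0.74, while ZNF354B and RUFY1 outside them changed by -0.06 and 0.13. ZFP2, the tested gene nearest to ZNF454 on its other side, was lower, with 64 reads against 28 (log2 fold change -1.13, edgeR adjusted p = 0.0483). GRM6, a metabotropic glutamate receptor that overlaps ZNF454, had 14 control reads and none in the other group. BPIFA2 on chromosome 20 lies among other genes of its secreted family: BPIFB4 had 78 reads against 8 and BPIFB1 402 against 114, both called lower. MAOB and its sister gene MAOA lie next to each other on the X chromosome, and MAOA had 245 reads against 96 (log2 fold change -1.28, edgeR adjusted p = 6.09e-05). FUNDC1, on the other side of MAOB, had 3429 reads against 3002 (log2 fold change -0.13) and was not called. GFRA1 on chromosome 10 has HSPA12A as a neighbour, with 2594 reads against 212 (-3.54, edgeR adjusted p = 2.93e-15). ATRNL1, on the other side of GFRA1, had 716 reads against 737 and was not called. NEK3 and PDX1 lie on chromosome 13, where 209 of 317 tested genes outside the 46 were lower and 7 higher, and their log2 fold changes had a median of -0.4. The part of that shift in the counts of NEK3 and PDX1 was not tested. Without chromosome 13 the count of lower neighbours went from 24 to 20. Other genes of the 46 had neighbours called higher by edgeR. Those of SNAP91 were PRSS35 and RIPPLY2-CYB5R4 (log2 fold changes 0.56 and 0.22), and those of PDCL2 were CLOCK and NMU (0.16 and 0.78). FAM156A beside GPR173 and COX7B2 beside GABRA2 were higher as well (2.09 and 0.89).

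**Figure D3:**
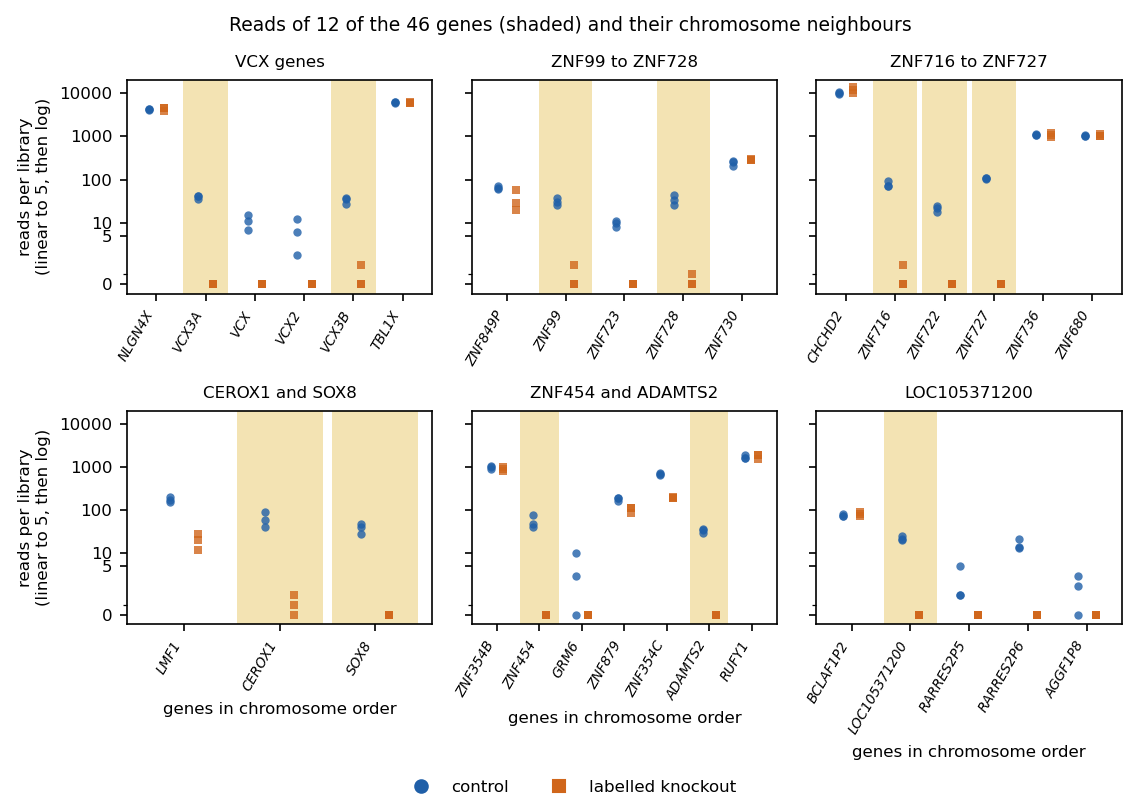
Reads per library of 12 of the 46 genes (shaded) and the rows next to them, in chromosome order, in the control libraries (circles) and the libraries labelled knockout (squares). The vertical axis is linear to 5 and logarithmic above. Flanking genes such as NLGN4X and TBL1X overlap between groups in reads, and VCX, VCX2 and ZNF723 have no read in the libraries labelled knockout.

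The families of the 46 genes were followed through their other tested members, taken by shared symbol stem in 19 families of at most 40 rows, zinc finger symbols left out. Of 113 such relatives, 50 were lower (44.2%), 16 were higher and 47 were not called (edgeR, adjusted p under 0.05), with a median log2 fold change of -0.18, against 23.4% lower and a median of 0.01 over all genes tested. A shared stem is not always kinship: SNAP91 and SNAP25 are unrelated proteins. The relatives were not matched for level, and no test of the difference was made. Among synaptotagmins, 6 of 10 were lower and 1 was higher: SYT3 went from 1.46 ± 0.245 CPM down to 0.211 ± 0.0526 (edgeR adjusted p = 1.42e-06, log2 fold change -2.76), SYT12 fell by 1.83 and SYT1 by 0.59 on the log2 scale. Among SOX factors, 5 of 12 were lower and 1 was higher. SOX11, a factor of immature neurons, fell from 145 ± 7.94 to 54.7 ± 2.9 CPM (log2 fold change -1.4), SOX4 by 0.91 and SOX9 by 0.74 on that scale, and SOX10, a SOXE factor like SOX8, by 0.12. SOX5, the most abundant SOX relative tested, fell from 890 ± 18.9 to 638 ± 16.6 CPM (log2 fold change -0.48).

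Other families showed the same unequal picture. Of 15 ADAMTS proteases, 5 were lower, among them ADAMTS9 (15.1 ± 1.34 to 3.58 ± 0.344 CPM) and ADAMTS1 (52.5 ± 0.931 to 15.6 ± 1.48 CPM), and 2 were higher. Of 10 PRDM factors, 3 were lower, among them PRDM6 with a log2 fold change of -1.88, and 1 was higher. Both tested GABA-A alpha relatives were lower, GABRA4 and GABRA3 with log2 fold changes of -2.05 and -0.38, as were both teashirt relatives, TSHZ2 and TSHZ1, with -1.25 and -0.18. GUCY1B2, on chromosome 13, fell from 4.67 ± 0.166 to 0.897 ± 0.231 CPM (log2 fold change -2.36), and STON1 from 35.6 ± 0.617 to 17.5 ± 2.53 CPM (-1.02). Opposite directions occurred within families: STMN3 fell by 1.42 on the log2 scale, whereas STMN1, a stathmin of dividing cells, rose by 0.49, and DOK6 fell by 1.03 while 2 of the 4 DOK relatives were higher. PDCL3, the ubiquitous relative of PDCL2, rose by 0.5. Every change named in this paragraph was called by edgeR at an adjusted p under 0.05.

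**Figure D4:**
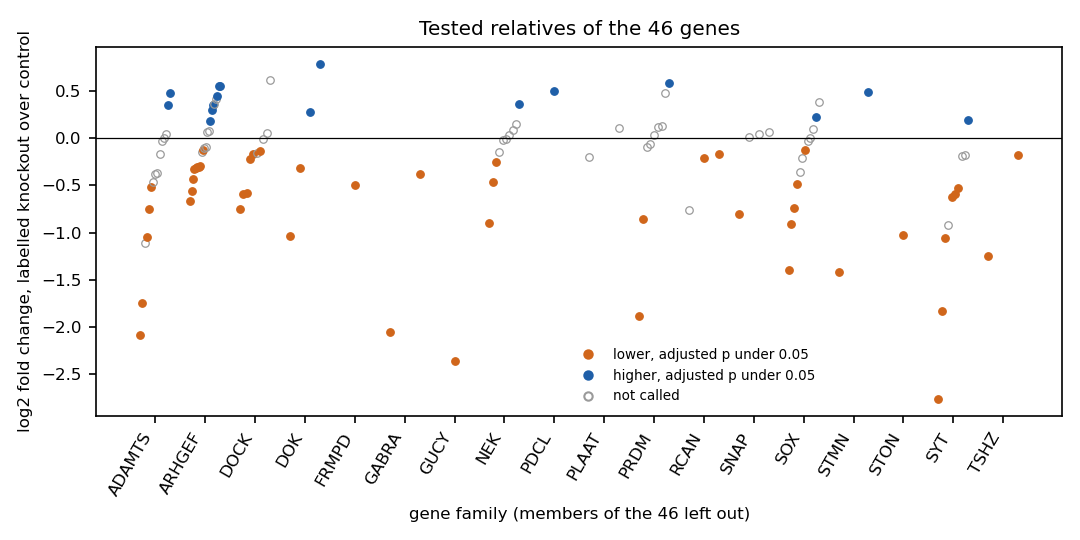
Log2 fold change, libraries labelled knockout over control, of tested relatives of the 46 genes, by family. Filled points were called lower or higher by edgeR at an adjusted p under 0.05, open points were not. The lowest point is SYT3 at -2.76, and the ARHGEF family holds relatives of both directions.

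Functional lists, written with earlier results of these data known, were read with the 46 genes left out. Only the developmental factor, neurotransmitter receptor and cancer-testis lists hold any of the 46, and how far the other lists share their roles was not measured. The list genes were not matched for level, and no test of the difference was made. Over 13 lists, 127 of 300 tested genes were lower (42.3%) and 55 were higher, beside 23.4% lower over all genes tested. Of 50 developmental transcription factors, 25 were lower and 4 higher, with a median log2 fold change of -0.27. PRRX1, a factor of limb and face mesenchyme, fell from 398 ± 18.1 to 171 ± 9.1 CPM, and BARX1 from 10.9 ± 0.659 to 2.8 ± 0.312 CPM. Of 20 neurotransmitter receptors, 8 were lower and 1 higher. The glutamate receptor GRM8 fell from 8.8 ± 0.333 to 0.479 ± 0.212 CPM and the muscarinic receptor CHRM3 from 31.1 ± 0.975 to 13.3 ± 3.14 CPM. Of 21 synaptic adhesion genes, 11 were lower and 6 higher. LSAMP fell from 26.4 ± 0.951 to 1.25 ± 0.265 CPM and CNTN3 from 13 ± 1.11 to 1.35 ± 0.14 CPM. Each of the genes just named stood above the highest control level of the 46 and kept reads in the libraries labelled knockout. Of 18 sodium and calcium channel genes, 6 were lower and 1 higher, and of 34 growth factor and receptor genes, 12 were lower and 7 higher. Of 40 matrix genes, 21 were lower and 7 higher, and of 18 chemokines and cytokines, 15 were lower and 1 higher, with CCL2 at 9.35 ± 0.84 against 0.139 ± 0.0422 CPM. Of 14 cancer-testis genes outside the MAGE family, 4 were lower and 3 higher, of 21 imprinted genes 7 were lower and 2 higher, and of 9 neuropeptides and hormones 3 were lower and 4 higher. Of 27 innate immune genes, 6 were lower and 7 higher. Of 9 genes that write or erase DNA methylation, 3 were lower and 3 higher: UHRF1, which guides the maintenance methyltransferase, rose from 76 ± 1.44 to 105 ± 9.33 CPM, and DNMT3A fell from 38.3 ± 1 to 28.3 ± 0.729 CPM. Of 19 Polycomb and histone H3 lysine 9 methylation genes, 6 were lower and 9 higher, with EZH2 rising from 84.6 ± 3.59 to 108 ± 7.04 CPM and JARID2 falling from 95.5 ± 5.08 to 71.9 ± 4.11 CPM. Lower and higher are edgeR calls at an adjusted p under 0.05.

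Promoter windows (250 bases before to 50 after the start, RefSeq GRCh38.p14) were found for 35 of the 46. Among those not matched were EN1, OR2I1P, SLC24A3, STMN2, SOX8, CEROX1, ZNF99, ZNF728, PDX1 and CA8. Taking each gene's median over its windows, 15 or more CG dinucleotides were found for 60% of the 35, beside 57.8% of 2234 other tested genes with 60 to 479 control reads, and 77.3% of all 12611 tested genes with a window. Windows with fewer than 5 made up 14.3, 18.3 and 7.91% of the same sets. The windows of these 35 genes ranged from 1 in the window of VCX3A and 3 in that of BPIFA2 to 47 in that of ADAMTS2 and 50 in that of PLAAT1, and no test of the differences between sets was made. Methylation of these windows was not measured.

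**Figure D5:**
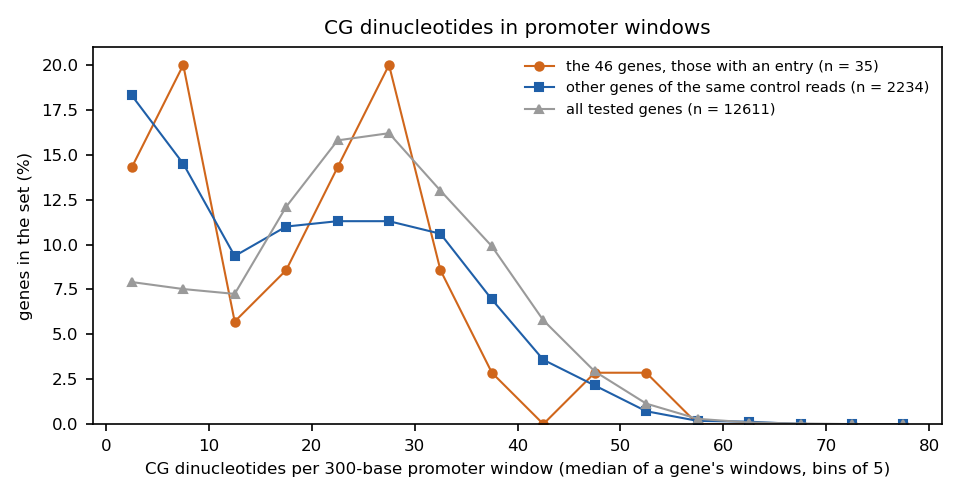
Share of genes by the number of CG dinucleotides in their 300-base promoter window, in bins of 5, for 35 of the 46 genes (circles), 2234 other genes of the same control reads (squares) and all 12611 tested genes with a window (triangles). Windows with 15 or more CG make up 60, 57.8 and 77.3% of the sets.

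Short motifs were searched on both strands of the same windows. TATAAA, the TATA box, was in a window of 17.1% of the 35 genes, 12.8% of genes of the same level and 9.56% of all. TGANTCA, the AP-1 motif, was in 20% (SYT16, PRLR, PDCL2, PRDM13, ZNF239, RCAN2 and STON2), 9.8% and 7.53%. CATTCC, the TEAD motif, was in 25.7, 17.2 and 15.3%, and GGGCGG, the GC box, in 65.7, 60.5 and 72.6%. CATGTG, an M-box type E-box, was in 11.4, 13.7 and 10.7%, CACGTG in 2.86, 9.98 and 11.9%, and TGACNNNGC, the core of the antioxidant response element, in 20, 18.4 and 18.8%. TGACGTCA, the cyclic AMP response element, was in none of the 35 and in 2.1 and 3.47% of the other sets. The AP-1 share rests on 7 genes. The 35 genes had a mean of 1.71 windows each, against 1.39 for genes of the same level and 1.44 for all. More windows give more room for a match, and the shares were not adjusted for this. A match describes letters in a window and shows no binding.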

How the data were processed

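For the 6 A-375 libraries the authors deposited raw counts by gene symbol, without normalization, in 1 table. Per the submitters' processing notes, HISAT2 2.2.1, SAMtools 1.21, featureCounts 2.0.6 and FastQC 0.12.1 were used with GRCh38. For the annotation, the strand setting, multi-mapping reads and read mates, the choices made were not given in the sources used here. Groups and replicate numbers come from the sample titles. The 46 genes and the 25 gene lists were chosen with earlier results of these data known.

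The whole table was fitted with edgeR 4.0.16 under R 4.3.3 (TMM factors, default filter, two-sided quasi-likelihood test), Benjamini-Hochberg adjusted over 16910 genes and called at 0.05. The procedure was tested on simulated data. CPM used TMM-scaled library sizes. Ratios carry exact 95% conditional binomial intervals. Read counts are given for the 40 genes with the most control reads and up to 3 per role; relatives and list genes named are up to 4 per family or list by smallest adjusted p. A neighbour is the nearest tested gene on either side, and neighbours named belong to those genes. Positions came from RefSeq GRCh38.p14, and exon lengths and 1 position from GENCODE 29. Alignments used Biopython 1.88, and figures matplotlib 3.10.9. Alternatives are given in the closing section. Values of 1 of the 46 genes, and of a few other genes, are not reported here.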

Additional observations from a re-analysis of the deposited data

How the results depend on the processing

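The number of genes depends on the limits. It was 71 with 30 or more control reads and 3 or fewer in the other group, 22 with 120 and 6, and 17 with 60 and 0. With the groups exchanged it was 1, or 2 with no symbol excluded, and 7 at the limits of 30 and 3, the latter pair of settings chosen after seeing the data. It stayed within 1.5 times of 46 with reads scaled to equal library sizes (42), with no symbol excluded (59), with 1 of each set of identical rows kept (46), and without each replicate in turn (44 to 53, limits scaled to the libraries left). Genes with no read in the libraries labelled knockout numbered 17 in all, and 17 to 25 without each replicate. Genes called lower numbered 3950, 4028 with RLE factors, 4064 with no filter, 3711 with at least 1 CPM in 3 libraries, 3768 with DESeq2 1.42.0, and 3270 to 3905 without each replicate. Relatives called lower numbered 45 to 52, list genes 112 to 129 and neighbours 20 to 26 over the same alternatives and, for relatives and neighbours, without chromosome 13. With at least 1 CPM required in 3 libraries, 18 of the 46 genes were tested. Replicate numbers do not pair the libraries (correlations of same-numbered deviations 0.0278, -0.094 and -0.253), so a fit with the replicate number as a replicate block is shown only here: it called 3997 genes lower. Depth limits the low side: 0 reads in 3 libraries is a count below 3, and no level under that floor can be read.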
